A study of Mus musculus with 12 samples.

Results

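In 529 places of the mouse genome, KAP1 was called in both of a pair of wild-type embryonic stem cell lines while ZFP57 was called in neither. These sites are 529 of the 12833 sites formed by joining overlapping peaks of 4 lists, those of KAP1 and ZFP57 in the lines A3 and E14. A site counted when it held an A3 KAP1 peak and an E14 KAP1 peak overlapping by at least 1 bp and no peak of either ZFP57 list. The sites were selected on the peak calls themselves, so the presence of KAP1 and the absence of ZFP57 are descriptions here and not findings.

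KAP1 (TRIM28) is a corepressor that does not read DNA sequence itself. KRAB zinc finger proteins, a very large family of DNA-binding proteins, bring it to their targets, where it assembles histone H3K9 methyltransferase SETDB1 and HP1 and so builds silent chromatin. In mouse embryonic stem cells KAP1 is known for silencing endogenous retroviruses and for binding within clusters of KRAB zinc finger genes. ZFP57 is the member of this family best known for imprinted control regions, so KAP1 sites without it are places where that particular partner was not called. Which other protein, if any, brought KAP1 to them was not measured.

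Occupancy was measured by ChIP-seq, in which an antibody pulls down formaldehyde-fixed fragments of chromatin for sequencing. The A3 cells carry the strain background 129X1/SvJ and the E14 cells 129P2/OlaHsd, and both lines are wild type for Zfp57. All were grown without feeder cells on gelatin with serum and leukemia inhibitory factor, at a higher serum share for E14, and non-essential amino acids were given to A3 alone. The series also holds Zfp57-/- cells of the A3 line, inputs and H3K9me3 libraries, 8 libraries in all that were not analysed here. Each line and antibody had 1 library, so no value carries a replicate error, and a difference between A3 and E14 cannot be told apart from a difference between 2 libraries. Peak lists cannot show cell type markers, so the identity of the cells rests on the labels.

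The lists were of very unequal length. After merging, A3 KAP1 held 10295 peaks with a median width of 600 bp and E14 KAP1 held 1334 with a median of 450 bp, against 1485 A3 and 602 E14 peaks of ZFP57. The files give a chromosome, a start and an end, with no score or read count, so the depth is unknown. Every boundary falls on a grid of 150 bp on the build mm9, and the narrowest peak in each list was 300 bp. Width is therefore the only measure of a peak besides its place. Shares below carry 95% exact Clopper-Pearson intervals over sites or peaks, which cover counting error only. Sites are not replicates of a line, and no test was made. The mm9 genome and gene models were not used here, so each site is named by its coordinates, without a gene, exon, intron or sequence.

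The 529 sites took up 5.14% of the A3 KAP1 peaks (4.72 to 5.58%) and 39.7% of the E14 KAP1 peaks (37.0 to 42.3%). In all, 5.96% of A3 KAP1 peaks and 46.0% of E14 KAP1 peaks overlapped a KAP1 peak of the other line. Of the 11014 sites with KAP1 in either line, 613 had it in both (5.57%), and 4.80% were the sites described here. Among those 613, ZFP57 was absent from 529 (86.3%, 83.3 to 88.9%), against 98.1% of all KAP1 sites. ZFP57 was called in both lines at 38 of the remaining 84, in E14 alone at 42 and in A3 alone at 4. These 84 are the nearest comparison for the 529, since they share the calls of KAP1 in both lines. KAP1 sites called in 1 line alone and without ZFP57 numbered 9644 in A3 and 630 in E14.

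The overlap that chose these sites also brings their midpoints together, since most peaks were 450 or 600 bp wide, so the closeness of the peaks is a description. At 249 of the 529 sites the midpoints of the A3 and E14 peaks fell on the same base (47.1%, 42.7 to 51.4%), and at 477 they lay within 75 bp (90.2%, 87.3 to 92.6%). Within 150 bp the count was 514 (97.2%, 95.4 to 98.4%). Start and end were both identical at 182 sites (34.4%, 30.4 to 38.6%), 1 boundary was shared at 242 and none at 105. Where only 1 boundary was shared it was the start at 115 sites and the end at 127. Both lines together covered 245.4 kb of these sites in common, which is 72.7% of what either covered, with 328.2 kb covered by the A3 peaks and 254.55 kb by the E14 peaks. At the sites with ZFP57 the midpoints lay within 150 bp at 80 of 84 (95.2%, 88.3 to 98.7%), an interval that overlaps that of the sites without it.

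The overlap rule was met with room to spare at most sites. The A3 and E14 peaks shared at least 300 bp at 525 sites and only 150 bp at 4, of which 1 was chr6:14363101-14363550, where each peak was 300 bp wide. Just outside the rule, 1 of the 630 sites called in E14 alone touched a site called in A3 alone and 5 lay within 1 kb of one (0.794%, 0.258 to 1.84%). Few sites therefore stood at the edge of the overlap that the rule asks for. The rule also rests on each peak being called. At these sites 19 A3 peaks and 111 E14 peaks had the minimum width of 300 bp.

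The A3 peak was usually the wider of the pair. At the 529 sites the A3 KAP1 width had quartiles of 450, 600 and 600 bp and a range of 300 to 5850 bp, and the E14 width had quartiles of 450, 450 and 600 bp and a range of 300 to 2700 bp. The mean was 620 bp in A3 against 481 bp in E14, a mean difference of 139 bp, which is less than 1 grid window. A3 was wider at 311 sites, equal at 194 and narrower at 24. The A3 peak held a narrower E14 peak inside it at 306 sites, the reverse was true at 23, and the peaks were staggered at 18. Most differences were small, with A3 wider by 150 bp at 199 sites, by 300 bp at 83 and by more at 29. The commonest combination was 600 bp in A3 with 450 bp in E14, at 113 sites, followed by 450 bp in both at 99 and 600 bp in both at 78.

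**Figure D1:**
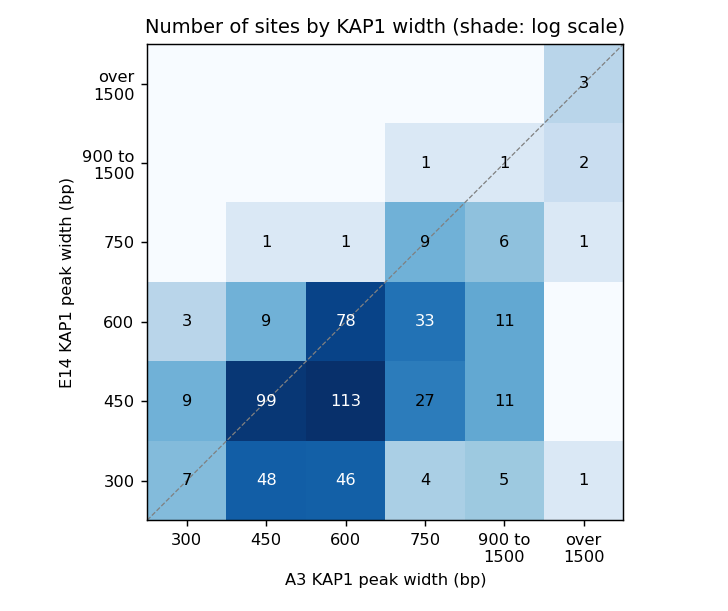
Number of KAP1 sites of both lines without ZFP57 for each combination of A3 KAP1 peak width (horizontal axis, bp) and E14 KAP1 peak width (vertical axis, bp). Shade follows the logarithm of the count and the dashed line marks equal width classes. Most sites lie on the diagonal or to its right, with 113 sites at 600 bp in A3 against 450 bp in E14, and 3 sites over 1500 bp in both lines.

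Widths in the lines went together in part. Over the 529 sites Pearson's r was 0.65 and Spearman's rho 0.40. Without the 7 sites that held a peak over 1500 bp r was 0.34 and rho 0.38 (n = 522). At the 84 sites with ZFP57 r was 0.85 and rho 0.57, and without peaks over 1500 bp 0.56 and 0.54 (n = 82). These are descriptions across sites that share their libraries and the coarse grid, and r was lower without the few wide sites.

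Peaks of the minimum width were a smaller share at the 529 sites than in the whole lists. The rule asks for an overlap between the lines, and a wider peak has more bases on which to meet one. The part of that in these shares was not tested. Peaks of 300 bp made up 3.59% of the A3 peaks at these sites (2.18 to 5.55%), 1351 of the 9644 sites called in A3 alone (13.3 to 14.7%) and 13.4% of the whole A3 list. In E14 the share was 21.0% at these sites (17.6 to 24.7%), 54.6% at sites called in E14 alone (50.6 to 58.5%) and 35.4% in the whole list. The 84 sites with ZFP57 also had few such peaks, 4.76% in A3 (1.31 to 11.7%) and 7.14% in E14 (2.67 to 14.9%), so a low share was not particular to the sites without ZFP57. Seen the other way, the sites took 1.37% of the A3 peaks 300 bp wide, 4.88% at 450 bp and 7.19% at 600 bp (6.33 to 8.12%). They then took 6.22% at 750 bp and 3.05% between 900 and 1500 bp (2.12 to 4.24%). In E14 they took 23.5% of the peaks of 300 bp (19.8 to 27.6%), 49.8% at 450 bp and 56.3% at 600 bp (49.7 to 62.7%). At 750 bp the share was 34.0% (21.5 to 48.3%) and between 900 and 1500 bp it was 11.4% (3.20 to 26.7%). With or without ZFP57, KAP1 was called in both lines at 164 of 238 E14 peaks of 600 bp and 37 of 53 of 750 bp. Between 900 and 1500 bp it was 17 of 35. The lower share of the sites at 750 bp was thus not a lower share called in both lines. Over 1500 bp the sites took 7 of 81 A3 peaks (8.64%, 3.55 to 17.0%), the highest share of any A3 class but with a wide interval, and 3 of 16 E14 peaks (18.8%, 4.05 to 45.6%).

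The share of sites without ZFP57 varied with the width of the KAP1 peak. Among KAP1 sites of both lines ordered by A3 width, ZFP57 was absent from 19 of 23 (82.6%) at 300 bp, 238 of 261 (91.2%, 87.1 to 94.3%) at 600 bp and 41 of 58 (70.7%, 57.3 to 81.9%) at 900 bp or more. Ordered by E14 width the shares covered a larger range. ZFP57 was absent from 111 of the 117 where the E14 KAP1 peak was 300 bp wide (94.9%, 89.2 to 98.1%) and from 259 of 274 at 450 bp (94.5%, 91.1 to 96.9%). It was absent from 134 of 164 at 600 bp (81.7%, 74.9 to 87.3%), 18 of 36 at 750 bp (50.0%, 32.9 to 67.1%) and 7 of 22 at 900 bp or more (31.8%, 13.9 to 54.9%). In that last class the E14 peaks over 1500 bp went the other way, with 3 of 5 at sites without ZFP57, against 4 of 17 between 900 and 1500 bp. A wide KAP1 peak also has more bases on which a ZFP57 peak can fall, and the part of that in these shares was not tested.

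**Figure D2:**
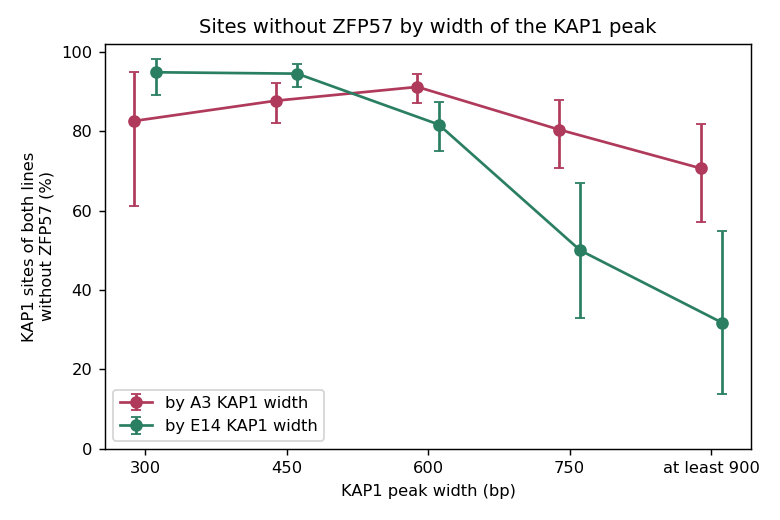
Share of KAP1 sites of both lines without ZFP57 (vertical axis, %) by the width of the A3 or of the E14 KAP1 peak at the site (horizontal axis, bp). Points are shares and bars are 95% exact intervals over sites. By A3 width the share was 82.6% at 300 bp and 70.7% at 900 bp or more, and by E14 width it was 94.9% and 31.8% at the same ends.

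The balance of widths between the lines differed at the 84 sites with ZFP57, most of which had it in E14. The A3 KAP1 peak was wider at 58.8% of the sites without ZFP57 (54.5 to 63.0%) and at 26.2% of the 84 with it (17.2 to 36.9%). It was narrower at 4.54% of the sites without ZFP57 (2.93 to 6.68%) and at 31.0% of those with it (21.3 to 42.0%). The mean A3 minus E14 width was 139 bp without ZFP57, 3.95 bp at the 38 sites with ZFP57 in both lines and -28.6 bp at the 42 sites with ZFP57 in E14 alone. At those 42 sites A3 was wider at 12, equal at 13 and narrower at 17. At the 4 sites with ZFP57 in A3 alone the mean difference was 150 bp, with A3 wider at 2 and equal at 2. These 4 are too few to compare with the other groups. The A3 median was 600 bp both without ZFP57 and over the 84 sites with it, while the E14 median was 450 bp without ZFP57 and 600 bp with it. With 1 library per line, how far this follows the line, the library or the threshold of each list cannot be told apart.

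**Figure D3:**
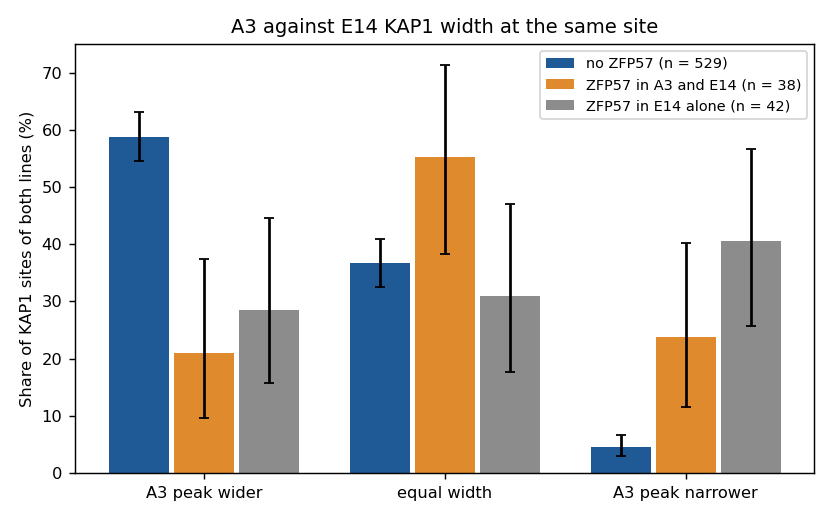
Share of KAP1 sites of both lines (vertical axis, %) at which the A3 KAP1 peak was wider than, equal to or narrower than the E14 KAP1 peak. Bars are the 529 sites without ZFP57, the 38 with ZFP57 in both lines and the 42 with ZFP57 in E14 alone, with 95% exact intervals over sites. A3 was wider at 58.8%, 21.1% and 28.6% of these, and the 4 sites with ZFP57 in A3 alone are not drawn.

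A small set of sites was far wider than the rest. A peak over 1500 bp occurred at 7 of the 529 sites, in A3 at all 7 and in E14 at 3. Of these, 3 lay on distal chromosome 4 and 2 on proximal chromosome 13. Distal chromosome 4 is known in the mouse for a large cluster of KRAB zinc finger genes. Whether these sites lie in or beside such genes was not tested.

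The chromosome 4 sites resembled each other. At chr4:145423801-145427700 the peak was 3000 bp in A3 against 1950 bp in E14, at chr4:145722001-145726050 it was 3150 bp in A3 against 1950 bp in E14, and at chr4:146558701-146562450 it was 2850 bp in A3 against 2700 bp in E14. All were staggered, and in each the E14 peak ran 900 bp beyond the A3 peak at 1 end. That end was the low-coordinate one at the sites starting at 145423801 and 146558701 and the high-coordinate one at the site starting at 145722001. The pair starting at 145423801 and 145722001 also had the same overlap between the lines, 1050 bp, so that their layouts were close to mirror images. This likeness was noticed after the positions were seen.

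The chromosome 13 sites had another form. At chr13:12913651-12919500 the A3 peak was 5850 bp, the widest of all 529, and the E14 peak covered its last 1500 bp. A neighbour 1650 bp further on, chr13:12921151-12922050, had peaks of 900 bp in A3 against 750 bp in E14. At chr13:13133401-13135500 the A3 peak was 2100 bp and the E14 peak again covered the end, 750 bp of it. Both wide sites thus shared their high-coordinate boundary in the lines. The remaining wide sites were chr2:30347551-30349200, with 1650 bp in A3 against 900 bp in E14, and chr16:84778951-84780750, with 1800 bp in A3 against the minimum of 300 bp in E14.

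**Figure D4:**
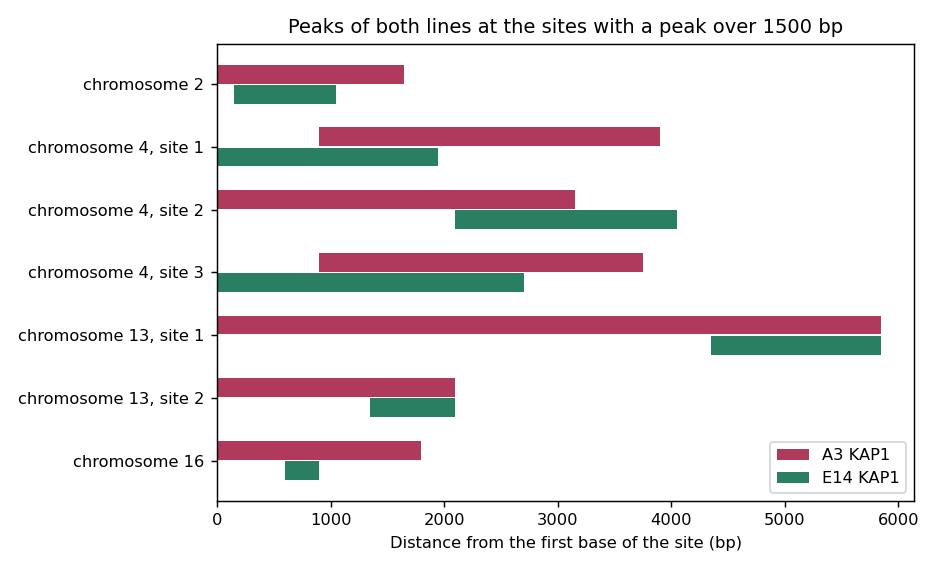
Extent of the A3 (upper bar) and E14 (lower bar) KAP1 peaks at the 7 sites with a peak over 1500 bp, as distance in bp from the first base of the site (horizontal axis), with sites of 1 chromosome numbered in order of position. At the chromosome 4 sites the E14 peak extends 900 bp past the A3 peak at 1 end, and at both chromosome 13 sites the peaks end together.

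The other sites among the 10 of the 529 with the widest peak in A3 or in E14 were less extreme. In A3 these were chr14:118642201-118643550 and chr17:34477651-34479000, each 1350 bp in A3 against 300 bp in E14, and chr6:91650601-91651800, with 1200 bp in A3 against 450 bp in E14. At all 3 of these the broad A3 peak held a narrow E14 peak. In E14 they were chr13:33572551-33573600 with 900 bp in both lines, chr4:145659901-145660800 with 750 bp in A3 against 900 bp in E14, and chr2:84429001-84430050 with 1050 bp in A3 against 750 bp in E14. The last 2, chr1:152499751-152500500 and chr4:96293701-96294450, had identical boundaries and 750 bp in both lines. In E14, 18 of the 529 sites tied at 750 bp, and the 3 named here come first of them by chromosome and position. The chromosome 4 site starting at 145659901 was among the 24 sites where A3 was the narrower.

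The sites were spread over all 21 chromosomes. Chromosome 7 held 42 (7.94%, 5.78 to 10.6%), chromosome 3 held 40 and chromosome 4 held 38, while chromosome 11 held 13 (2.46%, 1.31 to 4.17%). Per length up to the last peak, and chromosome Y aside, chromosome 17 had 3.26 sites per 10 Mb, chromosome 19 had 2.77 and chromosome 7 had 2.75, against 1.07 on chromosome 11, 1.37 on chromosome 8 and 1.38 on chromosome X. Chromosome Y held 3 sites in the 2.87 Mb that the lists reached, which is 10.4 per 10 Mb, the highest density but from 3 sites. The chromosome shares of the sites lay closer to the E14 list on chromosomes 11 and X. On others, chromosomes 2, 13 and 19 among them, they lay closer to the A3 list. The sites make up 39.7% of the E14 list and 5.14% of the A3 list, so the rule itself ties their shares more closely to E14. Chromosome 11 held 2.46% of the sites, 6.35% of all A3 KAP1 peaks and 3.00% of all E14 KAP1 peaks, and chromosome X held 4.35% of the sites (2.78 to 6.45%), 1.71% of the A3 list and 4.87% of the E14 list.

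On chromosome X 13.1% of the 176 A3 KAP1 peaks were among the sites (8.47 to 19.0%), and on chromosome 11 it was 1.99% of 654 (1.06 to 3.38%), beside 5.14% over the whole A3 list. For the E14 list the shares were 35.4% on chromosome X (23.9 to 48.2%) and 32.5% on chromosome 11 (18.6 to 49.1%), beside 39.7% over the whole list. The E14 shares ranged from 30.2% on chromosome 13 (20.8 to 41.1%) to 53.1% on chromosome 19 (34.7 to 70.9%), with intervals that overlapped.

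**Figure D5:**
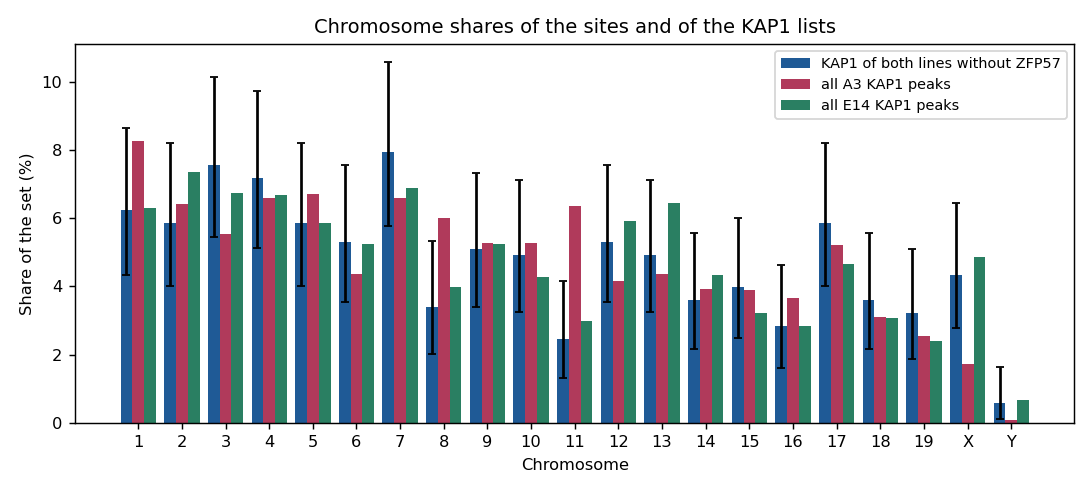
Share of each set (vertical axis, %) on each chromosome (horizontal axis) for the 529 sites, all A3 KAP1 peaks and all E14 KAP1 peaks. Bars on the sites are 95% exact intervals. On chromosome 11 the sites stand at 2.46% and the A3 list at 6.35%, and on chromosome X the sites stand at 4.35% and the A3 list at 1.71%.

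At the scale of 100 kb most sites stood alone, and at 1 Mb about as many had a neighbour as had none. The median distance between neighbouring sites on a chromosome was 2.38 Mb, with quartiles of 0.527 and 6.64 Mb, and the shortest was 900 bp. Another of the 529 lay within 100 kb of 87 sites (16.4%, 13.4 to 19.9%) within 10 kb of 22 and within 1 Mb of 276 (52.2%, 47.8 to 56.5%). The E14 KAP1 peaks at these sites had another E14 KAP1 peak within 100 kb in 24.4% of cases (20.8 to 28.3%), against 18.8% of the other E14 peaks (16.1 to 21.6%). In A3 the order was the opposite, with 62.6% of the A3 peaks at these sites (58.3 to 66.7%) against 71.3% of the other A3 peaks (70.4 to 72.2%). Within 10 kb the shares were close in either list, at 21.6% of the A3 peaks at these sites against 21.5% of the others, and at 6.05% of the E14 peaks at these sites against 6.09% of the others.

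Chaining sites at gaps of at most 100 kb gave 35 pairs, 3 groups of 3 and 2 groups of 4. One group of 4 lay at the start of chromosome 3, between 3097201 and 3212100, where 3 of the sites were 450 bp wide with identical boundaries in both lines. The remaining site of the group had 750 bp in A3 against 600 bp in E14. The other group of 4, on chromosome 7 between 26274901 and 26344050, had A3 widths of 600 or 750 bp and E14 widths of 450 or 600 bp. No ZFP57 peak of either line fell inside either group, as in most of the pairs. An A3 ZFP57 peak lay 16650 bp from the last site of the chromosome 3 group.

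The groups of 3 were these. On chromosome 6 between 123766651 and 123940800 all 3 sites had identical boundaries in both lines, at 600, 600 and 450 bp. On chromosome 17 between 3004201 and 3068250, 1 site was 750 bp in both lines and the others were 600 bp in A3 against 300 bp in E14. On chromosome 2 between 111279001 and 111360450 the A3 widths were 600, 450 and 600 bp, each E14 width was 450 bp, and 1 A3 ZFP57 peak lay between the sites. The closest neighbours of all were 900 bp apart, on chromosome 15 at chr15:22382251-22382850 with chr15:22383751-22384200 and at chr15:74775151-74775900 with chr15:74776801-74777700.

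Longer runs appeared when gaps of up to 1 Mb were allowed. The run with the most sites, on chromosome 12 between 20260501 and 22864200, held 9 along with 31 A3 and 13 E14 KAP1 peaks. A further 3 KAP1 sites of both lines there carried ZFP57. Chromosome 7 between 26274901 and 28491600 held 7 sites, and so did chromosome 19 between 7920901 and 9751800. In the chromosome 19 run each of the 7 E14 KAP1 peaks was at one of these sites, against 29 A3 KAP1 peaks. The run also held 3 A3 ZFP57 peaks. This was not particular to that run, since chromosome 7 between 4527601 and 5934000 held 5 sites and 5 E14 KAP1 peaks. Runs begin and end at these sites by construction, which raises such shares above the 39.7% of the whole E14 list. The run of 6 on distal chromosome 4, between 145341301 and 146562450, had 17 A3 and 15 E14 KAP1 peaks and included the 3 wide sites. A further run of 6 lay on proximal chromosome 4 between 3430051 and 5691000. This gap length was chosen after the positions were seen.

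ZFP57 was mostly far away. The nearest ZFP57 peak of either line lay at a median of 444.6 kb, with quartiles of 139.8 and 971.7 kb, against 517 kb for KAP1 sites of A3 alone and 390.6 kb for those of E14 alone. A ZFP57 peak lay within 1 kb of 4 sites, within 10 kb of 22 (4.16%, 2.62 to 6.23%) and within 100 kb of 103 (19.5%, 16.2 to 23.1%). At 100 kb the share was 13.1% of the KAP1 sites of A3 alone and 22.9% of those of E14 alone. The nearest was at chr18:74524201-74524650, 150 bp from an A3 ZFP57 peak and 3300 bp from an E14 one, with identical KAP1 boundaries in the lines. Next came chr9:95998351-95999100 at 600 bp and chrX:120312751-120313200 at 750 bp, both from an A3 ZFP57 peak. They were followed by chr3:134825851-134826300 at 900 bp and chr7:13894051-13894650 at 2100 bp, both from an E14 ZFP57 peak. Just outside the rule, the smallest overlap of a ZFP57 peak with KAP1 at the 84 sites was 300 bp, at 6 of them.

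Within 10 kb of the sites, ZFP57 came more often from the A3 list. An A3 ZFP57 peak lay within 10 kb of 20 sites (3.78%, 2.32 to 5.78%), against 77 of the 9644 KAP1 sites of A3 alone (0.798%, 0.631 to 0.997%) and 15 of the 630 of E14 alone (2.38%, 1.34 to 3.90%). An E14 ZFP57 peak lay within 10 kb of 4 sites (0.756%, 0.206 to 1.92%), against 0.736% of A3 alone and 2.06% of E14 alone. For ZFP57 of either line within 10 kb, the share was 4.16% of the sites, 1.47% of those of A3 alone and 4.29% of those of E14 alone. At 100 kb an A3 ZFP57 peak was near 13.8% of the sites (11.0 to 17.0%), 7.90% of A3 alone and 18.9% of E14 alone (15.9 to 22.2%). The share of the sites was thus above that of E14 alone at 10 kb and below it at 100 kb, with intervals that overlapped at either distance. The A3 ZFP57 list is longer than the E14 ZFP57 list. Of the 529 sites, 2 lay within 10 kb of a KAP1 site of both lines with ZFP57. The count was 8 within 100 kb and 43 within 1 Mb (8.13%, 5.94 to 10.8%). Only 84 such sites with ZFP57 exist, and how many would lie near so few places in any case was not tested.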

How the data were processed

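The authors deposited 1 peak list per library with 3 columns, chromosome, start and end, for A3 and E14 KAP1 and ZFP57. Per the submitters' processing notes, the build was mm9, and bedtools 2.14.3-1, SAMtools 0.1.18, Bowtie 0.12.7 and CASAVA 1.8.2 were among the tools. How peaks were called, at which threshold and against which input is not given in the sources used here, and depth is unknown.

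Here 1 was subtracted from each start, and overlapping or abutting peaks of 1 list were merged; this took away 53 A3 KAP1, 3 E14 KAP1, 1 A3 ZFP57 and 1 E14 ZFP57 peak. Peaks of all lists overlapping by at least 1 bp were joined into sites. Distances run between nearest ends. The site rule was checked on simulated lists against bedtools. Named sites were the 10 of the 529 with the widest KAP1 peak in each line (ties by chromosome and start), the 5 largest groups at gaps of 100 kb and the 5 nearest to ZFP57; others named were chosen after their values were seen. Sites and lists were chosen with earlier results of these data known. Alternatives were a reciprocal overlap of 50%, no ZFP57 within 1 kb, wider peaks, autosomes, no peaks over 1500 bp and no merging. The planned sequence description was not run because no mm9 genome was used here. The software was scipy 1.17.1, numpy 2.4.6, matplotlib 3.10.9 and pandas 2.3.3 under Python 3.11.15.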

Additional observations from a re-analysis of the deposited data

How the results depend on the processing

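Of 36 values, 6 results under each of 6 alternatives, 33 stayed within 1.5 times the count or within the 95% interval of the share or median. With the wider part of each KAP1 list, limits of 600 bp for A3 and 450 bp for E14, the number of sites was 297 in place of 529, and 12.8% of them had another within 100 kb in place of 16.4%. Fewer peaks enter under that setting. With a reciprocal overlap of 50%, 508 sites met the rule and midpoints lay within 150 bp at 99.0%, in place of 97.2%, which the setting itself favours. The share of KAP1 sites of both lines without ZFP57 lay between 84.4% and 86.6% under all 6. No paired analysis was possible because each group had 1 library and no test was made.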

Other observations

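More of the sites than of the A3 KAP1 list lay near the start of the chromosomes, the centromere-proximal end in the mouse. The share was also above that of the E14 KAP1 list, but with intervals that overlapped at 1 Mb and at 10 Mb. Within 1 Mb of the first peak of any list lay 25 of the 526 sites outside chromosome Y (4.75%, 3.10 to 6.94%), on 13 chromosomes, with at most 4 on any of them. The stretch is thus set by the same lists that chose the sites. On chromosomes 3, 6, 17, 18 and X the first peak itself belonged to a site, which therefore lay in the stretch by construction. Of the 10286 A3 KAP1 peaks 154 lay there (1.27 to 1.75%), while E14 had 37 of its 1325 there (2.79%, 1.97 to 3.83%). Of the 84 sites with ZFP57, 2 lay there (2.38%, 0.290 to 8.34%). This stretch made up 0.777% of the length between the first and last peaks. Within 10 Mb the figures were 16.5% of the sites (87 of 526), 14.3% of those with ZFP57 (7.61 to 23.6%), 8.95% of the A3 list and 13.7% of the E14 list, over 7.77% of the length. Within 5 Mb they were 11.0% of the sites and 10.7% of those with ZFP57, so the pattern was not particular to sites without ZFP57. The distances were chosen after the positions were seen, no test was made, and the sequence there was not analysed here.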
